A study of Mus musculus with 6 samples.

Results

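The regions described here are the ESRRB binding regions that were called only in 2iL, the medium that keeps mouse embryonic stem cells in the naive state. The cells were of the E14 line, derived from a mouse blastocyst. ChIP-seq, in which formaldehyde-fixed chromatin is isolated with an antibody and its DNA sequenced, was done with a mouse monoclonal antibody to ESRRB, once in 2iL, once at 48 h and once at 96 h without it. All cells had been grown in N2B27 medium with 3 µM CHIR99021 (a GSK3 inhibitor), 1 µM PD0325901 (a MEK inhibitor) and the cytokine LIF, and for the later times this medium was exchanged for N2B27 without the additives. The intervals of the 3 peak lists were pooled, overlapping ones were merged, and a merged region was kept when it held intervals of the 2iL list only, so the regions were chosen by the peak calls themselves. This left 6277 of 18634 merged regions (33.7%), and each of the 6277 was a single 2iL interval. They made up 45.6% of the 13767 regions of the 2iL list. For comparison, 4313 regions of the 2iL list overlapped a region of both later lists. With 1 library per condition there was no replicate and no test between conditions, intervals on shares are exact (Clopper-Pearson, 95%) and cover counting error only, and the lack of a later call does not show that ESRRB was absent.

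ESRRB is an orphan nuclear receptor that binds DNA as a monomer, at a hexamer of the nuclear receptor type extended at its 5′ side, the estrogen-related receptor element TCAAGGTCA. In naive embryonic stem cells it works in one network with NANOG, OCT4, SOX2, the KLF factors and TFCP2L1. Inhibition of GSK3 relieves repression of the Esrrb gene by the factor TCF7L1, and Esrrb expression is known to decline as cells leave the naive state.

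Promoters under these regions are shown first, because they are the part of the regions whose letters could be read. RefSeq promoter windows (GRCm38.p6, the assembly also called mm10) run from 250 bases before to 50 after a gene's start, and 476 of the 6277 regions overlapped 627 of the 32851 windows. In 176 of those windows the ESRRB summit itself lay inside the window. The 627 windows belonged to 541 genes, and the 711 windows under regions called at all 3 times came from 533 regions. Several windows can lie under 1 region, so windows are not independent, and the intervals on their shares do not allow for this. The full element TCAAGGTCA, on either strand, was in 1 of the 627 windows (0.159%, interval 0.00404 to 0.885), against 12 of 711 windows under regions called at all 3 times (1.69%, 0.875 to 2.93) and 0.423% of all windows. The intervals of the 2 classes just overlapped, and when only the 7018 regions of highest fold were kept from every list the share for 2iL-only regions was 1.12% (0.136 to 3.98). Its last 7 letters AAGGTCA, a shorter form of the same site that also matches within every full element, were in 57 of the 627 (9.09%, 6.96 to 11.6), against 75 of the 711 (10.5%, 8.39 to 13.0) and 4.72% of all windows. The windows below are the single one with the full element, at the long non-coding gene Gm30234, and the 5 protein-coding promoters of highest fold whose summit lay in the window within 50 bp of AAGGTCA. Capitals mark the match, which reads TGACCTT where it lies on the other strand.
Gm30234: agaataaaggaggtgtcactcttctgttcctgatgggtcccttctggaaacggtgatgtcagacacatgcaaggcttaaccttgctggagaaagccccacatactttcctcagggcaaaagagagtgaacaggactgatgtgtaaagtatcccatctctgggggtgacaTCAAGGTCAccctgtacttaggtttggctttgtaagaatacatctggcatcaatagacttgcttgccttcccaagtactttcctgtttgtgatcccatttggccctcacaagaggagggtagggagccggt
Fam53b: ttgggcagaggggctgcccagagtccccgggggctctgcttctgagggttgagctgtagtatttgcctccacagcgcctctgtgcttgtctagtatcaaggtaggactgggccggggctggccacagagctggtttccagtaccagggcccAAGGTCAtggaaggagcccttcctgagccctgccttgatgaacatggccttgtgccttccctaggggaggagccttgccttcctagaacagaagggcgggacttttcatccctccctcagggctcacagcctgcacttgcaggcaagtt
Dedd: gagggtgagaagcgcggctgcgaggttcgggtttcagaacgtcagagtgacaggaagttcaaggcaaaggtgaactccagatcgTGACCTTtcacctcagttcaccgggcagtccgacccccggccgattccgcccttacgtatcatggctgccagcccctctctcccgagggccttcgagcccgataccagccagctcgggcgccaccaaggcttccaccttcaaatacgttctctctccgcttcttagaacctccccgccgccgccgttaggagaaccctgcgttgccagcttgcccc
Tfpi: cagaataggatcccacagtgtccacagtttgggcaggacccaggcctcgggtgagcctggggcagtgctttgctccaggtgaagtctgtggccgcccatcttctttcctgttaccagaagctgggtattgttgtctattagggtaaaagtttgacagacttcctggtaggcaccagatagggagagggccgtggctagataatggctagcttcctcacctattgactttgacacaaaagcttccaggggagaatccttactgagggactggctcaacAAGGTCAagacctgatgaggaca
Csrnp1: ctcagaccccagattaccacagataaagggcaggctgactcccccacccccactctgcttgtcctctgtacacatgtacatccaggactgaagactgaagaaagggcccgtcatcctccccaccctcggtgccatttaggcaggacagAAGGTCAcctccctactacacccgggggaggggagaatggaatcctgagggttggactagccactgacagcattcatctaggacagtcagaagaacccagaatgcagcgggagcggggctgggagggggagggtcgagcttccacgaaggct
Foxk2: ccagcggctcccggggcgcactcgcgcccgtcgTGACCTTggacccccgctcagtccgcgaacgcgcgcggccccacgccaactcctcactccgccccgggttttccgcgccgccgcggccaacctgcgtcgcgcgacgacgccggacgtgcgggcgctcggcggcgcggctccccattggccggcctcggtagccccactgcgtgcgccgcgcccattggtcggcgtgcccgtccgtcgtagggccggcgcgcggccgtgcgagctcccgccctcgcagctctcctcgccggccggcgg

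The Gm30234 window lies at chr19:53064640-53064939 (minus strand). Its ESRRB region (53064145 to 53065251) had a fold enrichment over local background of 6.60, from 95 reads at the summit, and the centre of the element lay 70 bp from the summit. Dedd encodes a death effector domain protein, and its window (chr1:171328895-171329194, plus strand) had the match 4 bp from the summit of a region of fold 6.65. Tfpi encodes an inhibitor of blood coagulation, and its match also lay 4 bp from the summit (chr2:84474125-84474424, minus strand, fold 5.85). Here the summit fell after the start of the gene, and in the other 4 protein-coding windows it fell before it. In the window of Foxk2, a forkhead factor gene (chr11:121259737-121260036, plus strand, fold 5.14), the distance was 16 bp. In those of Csrnp1 (chr9:119984693-119984992, minus strand, fold 5.76) and Fam53b (chr7:132776867-132777166, minus strand, fold 7.21) it was 18 and 42 bp. The 6 promoter regions had folds of 5.14 to 7.21 and 42 to 95 reads at the summit.

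Beside them stand the 2 strongest protein-coding promoters with the full element and the summit inside the window that were called at all 3 times and overlapped no region called only in 2iL.
Atp5g3: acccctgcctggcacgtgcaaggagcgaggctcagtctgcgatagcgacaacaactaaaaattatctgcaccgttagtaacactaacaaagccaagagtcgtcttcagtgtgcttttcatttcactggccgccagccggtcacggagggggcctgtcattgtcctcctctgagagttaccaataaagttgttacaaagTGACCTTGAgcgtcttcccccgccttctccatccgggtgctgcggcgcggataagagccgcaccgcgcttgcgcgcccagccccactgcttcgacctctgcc
Nfkbid: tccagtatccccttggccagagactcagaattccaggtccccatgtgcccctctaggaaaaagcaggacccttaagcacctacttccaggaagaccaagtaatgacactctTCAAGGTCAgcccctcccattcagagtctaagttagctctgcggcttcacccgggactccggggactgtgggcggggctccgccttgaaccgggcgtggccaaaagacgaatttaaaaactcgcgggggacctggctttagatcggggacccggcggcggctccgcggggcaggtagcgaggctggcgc
Atp5g3, which encodes a subunit of the mitochondrial ATP synthase (chr2:73911277-73911576, minus strand), had a fold of 13.8 in 2iL, then 10.3 by 48 h and 15.0 by 96 h. Nfkbid, which encodes a nuclear regulator of NF-kappa-B (chr7:30421481-30421780, plus strand), had folds of 8.59, 4.25 and 2.84. In both the element lay within 10 bp of the summit.

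Where the summit lay inside the promoter window, AAGGTCA was present in 36 of 176 windows under regions called only in 2iL (20.5%, 14.8 to 27.2) and in 49 of 143 under regions called at all 3 times (34.3%, 26.5 to 42.7). The median distance from the match to the summit was 48 bp and 35 bp. These classes differ in strength, so each was split at the median fold of all 2iL regions, 5.88. Below it the shares were 26 of 151 (17.2%, 11.6 to 24.2) for 2iL-only regions and 12 of 57 (21.1%, 11.4 to 33.9) for regions called at all 3 times. At or above it they were 10 of 25 (40%, 21.1 to 61.3) and 37 of 86 (43.0%, 32.4 to 54.2). Within each side of the median the intervals of the classes overlapped. The windows under both classes had a median G and C content of 61%, against 52.7% over all windows. The bare hexamer AGGTCA, which lies inside both forms, was in 128 of 627 windows under 2iL-only regions (20.4%, 17.3 to 23.8), in 178 of 711 under regions called at all 3 times (21.9 to 28.4%) and in 16.3% of all windows. Among other elements searched on both strands, the E-box CACGTG was in 11.8% of windows under 2iL-only regions and 7.15% of all windows, the KLF site GGGCGTGG in 9.41% and 5.33%, the cyclic AMP element TGACGTCA in 3.67% and 1.79%, the octamer ATGCAAAT in 0.957% and 1.74%, the STAT site TTCCNGGAA in 0.957% and 1.15%, and the TCF site CTTTGAT in 2.55% and 3.73%. For all 6, the interval for 2iL-only regions overlapped that for regions called at all 3 times.

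By median fold, regions called only in 2iL were weaker than regions called at all 3 times, though some were strong. Their calls chose the 2iL-only regions, so strength is given as a description. The fold at the highest summit had a median of 5.19, a middle range of 4.30 to 6.55 and extremes of 1.35 and 28.0, against a median of 7.60 and extremes of 1.52 and 48.2 for the regions called at all 3 times. A typical 2iL-only region rested on 42 reads at its summit, with 5% under 26 and 5% over 88, against a median of 74 reads. The median width was 877 bp against 1181 bp, and 2263 of the regions (36.1%) held more than 1 summit, against 46.4%. The local background behind the folds was at the library's floor of 5.04 reads in 14.2% of 2iL-only regions and in 6.35% of the regions called at all 3 times. The 6277 regions covered 6.05 Mb, and 6058 of them (96.5%) had a q of 1e-05 or less. Of the 6277, 55.4% had a 2iL fold above the median fold of the 48 h list (4.98). For the median of the 96 h list (4.82) it was 59.6%.

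**Figure D1:**
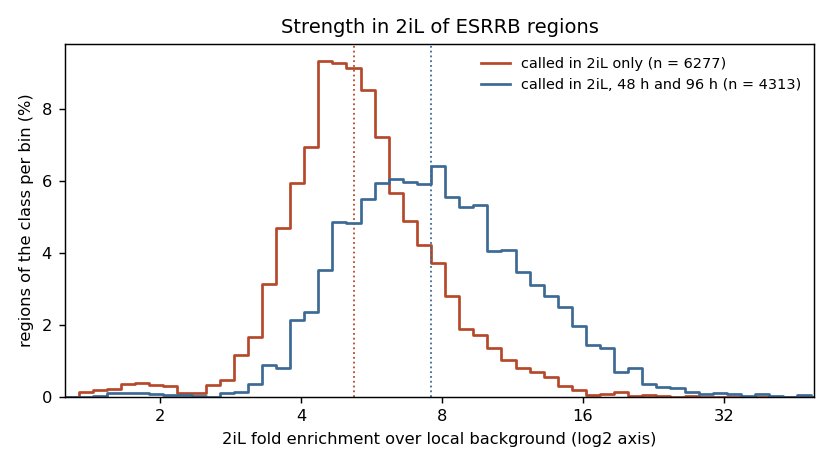
Share of regions (%) by 2iL fold enrichment (log2 axis) for regions called only in 2iL and 2iL regions that overlapped both later lists, with dotted lines at the medians of 5.19 and 7.60. The distribution of the 2iL-only regions sits to the left but reaches a fold of 28.0.

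When all 2iL regions were split into 5 equal groups by fold, numbered 1 (weakest) to 5, the share called only in 2iL went down at each step. It was 65.1% in the weakest group, then 58.2%, 47.3% and 37.3%, and 20.1% in the strongest, where folds were at least 8.71. The weakest group alone held 28.5% of the 2iL-only regions and the strongest 8.81%. Background floors in reads, relative to 2iL, were 1.60 in the 48 h library and 1.16 in the 96 h library. Each fold is relative to the background of one library. The part of depth in the missing later calls was not tested.

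**Figure D2:**
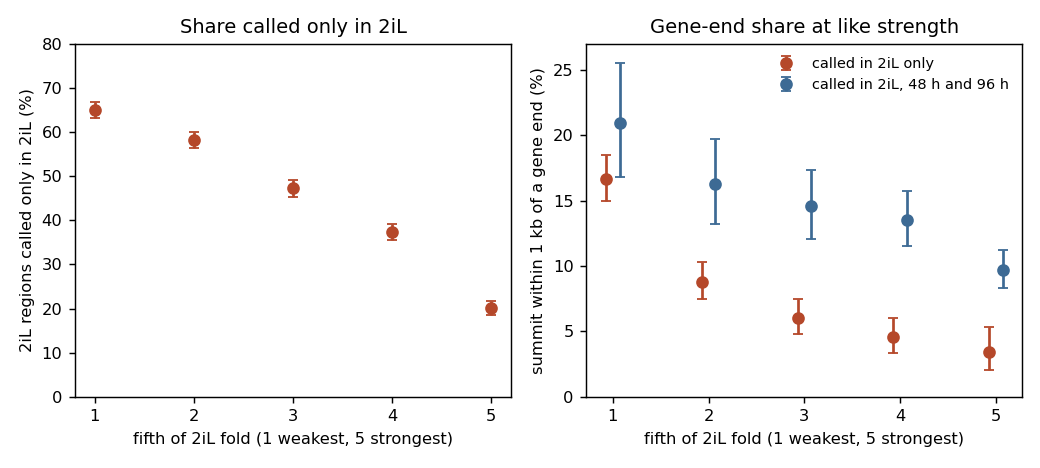
Left, share of 2iL regions called only in 2iL (%) in each of the 5 groups of 2iL fold, from 65.1% in the weakest to 20.1% in the strongest. Right, share with the summit within 1 kb of a protein-coding gene end (%) in each group, for regions called only in 2iL and at all 3 times; points are shares and bars exact 95% intervals.

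The rule turned on an overlap of at least 1 bp, and few regions lay close to that edge. Only 20 of the 6277 had a later region within 100 bp and 258 (4.11%) within 1 kb, and the median distance to the nearest later region was 37.5 kb. At the edge, a region 16.3 kb from Arl4a (chromosome 12, 40016558 to 40017207, fold 3.99) lay 1 bp from a 48 h region of fold 4.77. A region near Cobl (chromosome 11, 12464209 to 12466168, fold 3.55) lay 7 bp from a strong 48 h region of fold 21.2. The next 3, inside Nt5e, Lgalsl and Macrod2, had folds of 1.69 to 2.02 and later regions 17 to 26 bp away. Just outside the rule, a 2iL region near Gfpt2 (fold 1.38) overlapped a 48 h region by 2 bp, and regions near Tet1 (5.09), Ubald2 (3.50) and Txn2 (1.95) overlapped later regions by 14 bp. One near Reep3 (1.55) overlapped by 17 bp.

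At the other extreme, 1650 regions (26.3%, 25.2 to 27.4) had no later region within 100 kb. Their median fold was 5.44, against 5.13 for the 2177 regions whose nearest later region lay 10 to 50 kb away. The median number of summit reads was 42 and 43.

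The strongest region called only in 2iL lay 7696 bp outside Bach1, which encodes a haem-regulated transcriptional repressor (chromosome 16, 87690635 to 87692027). It had a fold of 28.0 from 208 reads, rank 20 among all 2iL regions, and the nearest later region was 333.2 kb away. Next came a region 5335 bp from Ffar2, a receptor gene for short-chain fatty acids (chromosome 7, 30827297 to 30829658), with a fold of 24.1 from 231 reads. A region 3766 bp from Fam189a2 (chromosome 19, 23968020 to 23969936) had a fold of 22.6 from 258 reads. These 3 ranked 20, 38 and 53 in the whole 2iL list and had no later region within 100 kb. The fourth was 539 kb from any protein-coding gene, nearest Pdcd6ip, an ESCRT-linked gene (chromosome 9, 113112446 to 113113408, fold 22.2), and the next lay inside Lyzl4, a lysozyme-like gene (chromosome 9, 121613902 to 121616746, fold 22.2 from 240 reads).

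The other 15 of the 20 strongest had folds of 17.1 to 20.1. Genes of small GTPase control were among those that hosted or lay nearest to them: Bcar3, whose protein has an exchange-factor domain (chromosome 3, 122511798 to 122512922, fold 20.1), Arhgap17 (chromosome 7, 123344806 to 123345893, fold 18.9), Arhgef10l (chromosome 4, 140639046 to 140641670, fold 17.7) and Sh3bp1 (chromosome 15, 78896696 to 78897954, fold 17.1). Transporter genes were Slc39a11, for zinc (chromosome 11, 113587987 to 113589867, fold 20.1 from 267 reads), Slc25a13, for aspartate and glutamate in mitochondria (chromosome 6, 6106791 to 6108313, fold 19.7), and Slco2a1, for prostaglandins (chromosome 9, 103088357 to 103089555, fold 19.4). Cell surface genes were Opcml (fold 19.9) and Cdh13, a cadherin gene (fold 19.0). A region inside Runx2, the bone transcription factor gene, had a fold of 17.6, and one inside Cep57l1, a centrosome gene, 19.2. The remaining 4 lay inside Frmd4b (19.2), 4820 bp from Gm3213 (18.5), and far from genes, 407 kb from Cd83 (19.8) and 494 kb from Brinp3 (17.5).

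In all, 12 of these 20 regions lay inside a protein-coding gene, 3 lay more than 50 kb from any, and none lay within 1 kb of a gene end. Only the region at Sh3bp1 had a region called at all 3 times within 10 kb. In 12 of the 20 the nearest later region was more than 50 kb away. Of all 6277 regions, 56.9% had a later region within 50 kb. By place, 43.4% of the 6277 lay inside a gene away from its ends, 18.4% over 50 kb from any and 9.32% at gene ends. The nearest gene is given as position only.

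The widest regions ranged in fold from 3.92 to 10.0, and 4 of the 5 lay above 6.55, the upper quartile of the class. A 4401 bp region inside Dact2, a gene for a WNT and Nodal pathway modulator (chromosome 17, 14200188 to 14204588), held 6 summits at a highest fold of 9.26. One of 4361 bp, 216 kb from Grin2a (chromosome 16, 9349808 to 9354168), held 8 summits, the most of any 2iL-only region, at a fold of 6.89. The other wide ones lay inside Il6ra (3538 bp, fold 3.92), Trpm1 (3493 bp, 7.02) and Cmtm7 (3481 bp, 10.0), each with 6 summits. Those near Guca2a and Ntn1 had 7 and 6 summits at folds of 5.74 and 7.33.

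Regions called only in 2iL lay less often at gene ends than those called at all 3 times, and about as often as those called in 2iL and at 48 h but not at 96 h. A summit was counted at a gene end when a protein-coding gene began or ended within 1 kb of it, as for 585 of the 6277 (9.32%, 8.61 to 10.1), against 13.2% (12.2 to 14.3) of the regions called at all 3 times. Among the 2668 regions called in 2iL and at 48 h but not at 96 h it was 240 (7.94 to 10.1%), and among the 509 called in 2iL and at 96 h but not at 48 h it was 18.5% (15.2 to 22.1). Elsewhere inside a gene lay 2722 (43.4%, 42.1 to 44.6), against 38.9% (37.4 to 40.4) for all 3 times and 44.2% (42.3 to 46.1) for 2iL and 48 h without 96 h. Up to 10 kb outside a gene lay 11.7%, against 14.7%, and from 10 to 50 kb outside 17.2%, against 17.3%. Over 50 kb away lay 18.4% (17.5 to 19.4), against 15.9% (14.8 to 17.0) for all 3 times. It was 16.8% (15.4 to 18.3) for 2iL and 48 h without 96 h. For 2iL and 96 h without 48 h it was 18.1% (14.8 to 21.7). The intervals of both these classes overlapped that of the 2iL-only regions. Taking gene starts alone, from the promoter windows on the chromosomes that have them, 425 of 6072 regions (7.00%, 6.37 to 7.67) lay within 1 kb of a protein-coding start, against 446 of 4196 (10.6%, 9.71 to 11.6) for all 3 times and 6.92% (5.97 to 7.97) for 2iL and 48 h without 96 h. The median distance to the nearest start was 35.0 kb against 29.8 kb. Place was not used to choose the regions, but regions along a chromosome are not independent and no test was made.

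**Figure D3:**
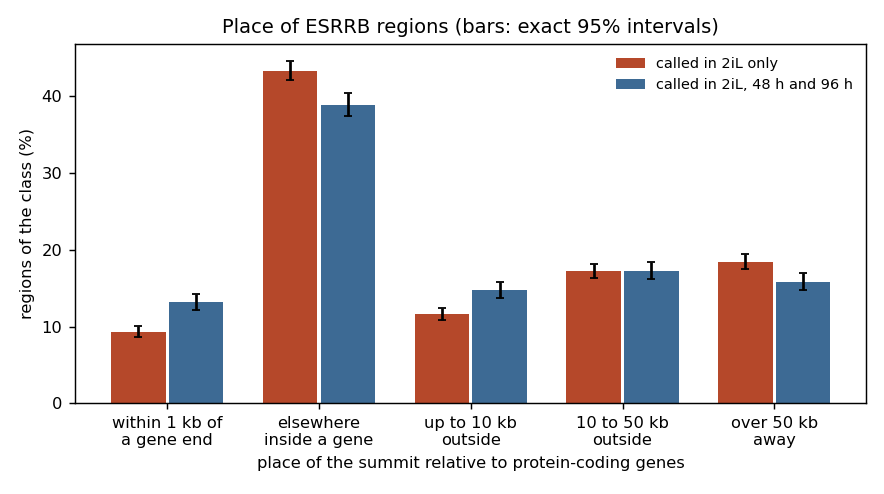
Share of regions (%) by place of the summit relative to protein-coding genes, for regions called only in 2iL (left bars) and at all 3 times (right bars), with exact 95% intervals. Gene ends hold 9.32% and 13.2%, gene bodies 43.4% and 38.9%.

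Against regions called at all 3 times, the gene-end share was also lower for 2iL-only regions in each of the 5 groups of fold. In the weakest group the shares were 16.7% (15.0 to 18.5) for 2iL-only regions and 20.9% (16.9 to 25.5) for regions called at all 3 times, with overlapping intervals. In the next groups they were 8.80% against 16.3%, 6.07% against 14.6% and 4.58% against 13.6%. In the strongest group 19 of 553 2iL-only regions (3.44%, 2.08 to 5.31) lay at a gene end, against 160 of 1644 (9.73%, 8.34 to 11.3). In the 4 upper groups the intervals did not overlap. Regions called in 2iL and at 48 h but not at 96 h had 14.9%, 12.7%, 7.72%, 5.62% and 5.11% from the weakest group to the strongest, and their intervals overlapped those of the 2iL-only regions in all 5 groups. In that strongest group 27.5% of the 2iL-only regions (23.8 to 31.4) lay more than 50 kb from any gene, against 19.4% (17.5 to 21.4). Among the 2iL-only regions themselves, those at gene ends had the lowest median fold, 4.41, and those over 50 kb from a gene the highest, 5.46.

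The strongest of them over a protein-coding promoter window were at Ubl5, a ubiquitin-like gene (chromosome 9, 20641693 to 20642733, fold 12.0 from 107 reads), Col20a1, a collagen gene (fold 11.2), Snx18, a sorting nexin gene (11.2), Slc44a1, a choline transporter gene (11.1), and Klhdc7a (11.1). None of these 5 windows held AAGGTCA. The summits lay outside the windows, at -445, -695, -741, -1127 and 259 bp from the start. These promoters were chosen after their values were seen.

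Most regions called only in 2iL had no other of their class within 10 kb. Another such region lay within 10 kb of 1107 of them (17.6%, 16.7 to 18.6), against 14.9% for regions called at all 3 times and their own class. The classes held 6277 and 4313 regions, and the larger number of possible neighbours in the first was not corrected for. The value for 2iL-only regions was 8.29% when only the 7018 regions of highest fold were kept from every list. For the full lists, a region called at all 3 times lay within 10 kb of 565 (8.30 to 9.74%). Any other 2iL region lay within 10 kb of 30.0% of them, against 31.2% of regions called at all 3 times. Linked at 10 kb, they formed 5170 single regions, 448 pairs, 59 triples, 6 runs of 4 and 2 runs of 5. One of the runs of 5 lay inside Esrrb itself, and the other, at a highest fold of 5.72, nearest Amotl1, an angiomotin family gene (chromosome 9, 14662050 to 14681119).

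Esrrb, with 12 regions of 2iL inside its 160.5 kb span on chromosome 12, had 8 that were called only there. From the start of the gene onward those 8 had folds of 3.53, 3.36, 7.03, 4.98, 5.07, 5.04, 3.66 and 5.73, with 32 to 97 reads at the summit. The strongest (86454788 to 86456031) began the run of 5, which spanned 24.7 kb and ended at 86479475. The 4 other regions, 1 near the gene start and 3 between 137.7 and 143.4 kb into the gene, were called at all 3 times. The region near the start had a fold of 6.14 in 2iL, 4.91 by 48 h and 3.31 by 96 h. The strongest, 140.7 kb into the gene, had 17.9, 17.8 and 19.9, and its neighbour at 143.4 kb had 17.0, 4.10 and 4.07. Of the 8, 7 lay between the region near the gene start and that distal group, and 1 lay 159.1 kb into the gene.

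**Figure D4:**
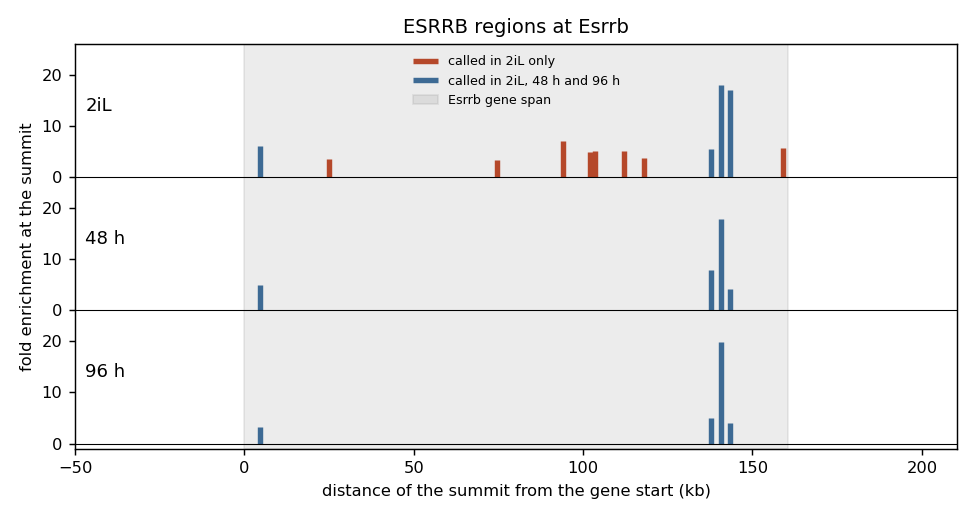
ESRRB regions along Esrrb in 2iL, at 48 h and at 96 h: bar height is fold enrichment at the summit and the horizontal axis the distance from the gene start (kb). The 8 regions called only in 2iL have folds of 3.36 to 7.03, and the run of 5 lies between 94.1 and 118.0 kb into the gene.

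Across the annotation, 7830 protein-coding genes had a 2iL-only region within 50 kb of their span, and 3304 of these also had a region called at all 3 times. Of the 12252 genes with any 2iL region, 2284 (18.6%) had only such regions and none in the later lists. The gene with the most was Dym, a Golgi organisation gene, with 12 of 14 regions at folds up to 5.90. Mob3b, a MOB kinase activator gene, had 8 of 11 (highest fold 11.8), and its other 3 were also called at 48 h and not at 96 h. Slc39a11, Frmd4b, Rbfox1 (an RNA splicing factor gene), Adam19 (a metalloproteinase gene), Epb41l4a and Dst (a cytoskeletal linker gene) had 7 each, of 11, 8, 11, 8, 11 and 11. Arhgef10l had 6 of 8. Of these 10 genes with the most, Dym, Frmd4b and Adam19 had 1 region each called at all 3 times, Mob3b and Arhgef10l had none, and the other 5 had 2 to 4. All but Adam19 span more than 150 kb, and gene length was not corrected for.

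Genes of pluripotency, signalling and lineage were read through 14 lists of 231 genes. Of the 528 regions of 2iL within 50 kb of a listed gene, 198 (37.5%, 33.4 to 41.8) were called only in 2iL, against 45.6% of all 2iL regions and 45.0% of those within 50 kb of any protein-coding gene. Applying to the 528 the share found in each of the 5 groups of fold gave 45.0% as well. Within 10 kb the share was 81 of 276 (29.3%, 24.0 to 35.1), against 44.9% near any protein-coding gene. Genes with only 2iL-only regions and no later region were 18 of the 176 listed genes with a 2iL region (10.2%), against 18.6% of all genes. The number of regions per gene was not matched in this comparison. The lists share genes, and neighbouring genes share regions.

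**Figure D5:**
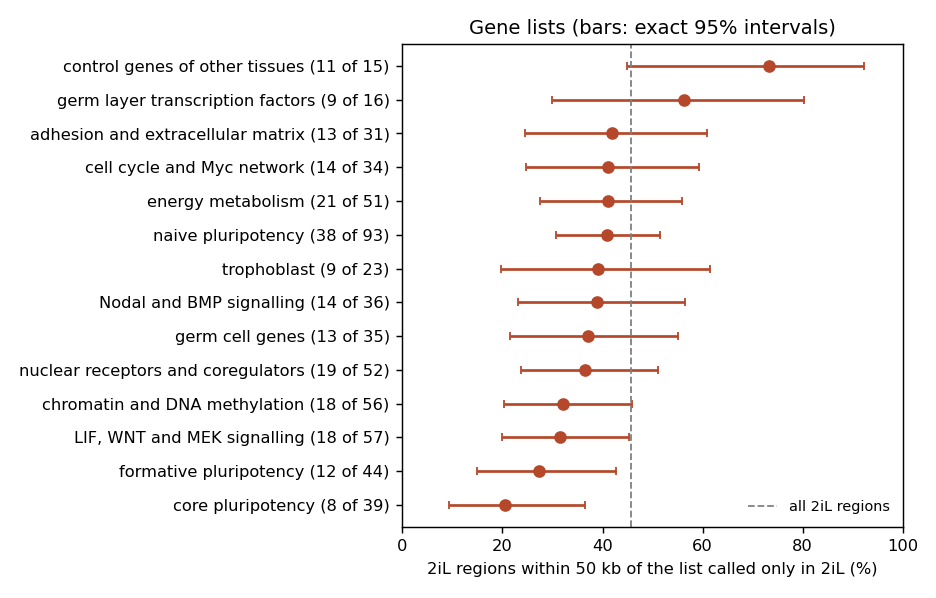
Share of 2iL regions within 50 kb of each gene list that were called only in 2iL (%), with exact 95% intervals; the dashed line is the 45.6% over all 2iL regions. Core pluripotency genes are lowest at 20.5% (8 of 39) and control genes of other tissues highest at 73.3% (11 of 15).

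Naive pluripotency genes had 38 2iL-only regions of 93 (40.9%, 30.8 to 51.5), against 45.6% of all 2iL regions. These lay at 16 of the 19 naive genes with a 2iL region, against 7830 of 12252 over all protein-coding genes. The number of regions per gene was not matched in this count. Gbx2, a homeobox gene of the naive network, was the only one with no other region in any of the 3 lists: all 4 of its regions were of this kind, the strongest 4909 bp from the gene (chromosome 1, 89934735 to 89937691, fold 7.33 from 65 reads). Nr5a2, which encodes a nuclear receptor of the network, had 4 of 5, the strongest 20287 bp from the gene (chromosome 1, 136980410 to 136981211, fold 7.51 from 62 reads). Prdm14 had 3 of 5, Socs3 (a feedback inhibitor of LIF signalling) 3 of 7 and Fgf4 3 of 8. Nr0b1, Jam2 and Sox15 had 0 of 4, 0 of 4 and 0 of 3. Klf4 had 2 of 2 within 50 kb and 1 separate region at 96 h, Stat3 1 of 1 and 1 at 48 h, and Tfcp2l1 1 of 5. Nanog and Dppa3 shared 1 (chromosome 6, 122662680 to 122664324, fold 5.86), which lay 43549 bp from Nanog and 33669 bp from Dppa3. It was 1 of 6 regions at Nanog and 1 of 2 at Dppa3. The strongest of these regions at any naive gene had a fold of 7.51, and their median was 4.99.

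Core pluripotency genes had 8 of 39 (20.5%, 9.30 to 36.5), the lowest share of the 14 lists, and 1 of 18 within 10 kb. The 3 strongest were 10612 bp from Lin28a, an RNA-binding regulator gene (chromosome 4, 133992147 to 133992995, fold 8.93 from 53 reads), Pou5f1, which encodes OCT4 (chromosome 17, 35502075 to 35503148, 3320 bp from the gene, fold 8.69 from 88 reads), and Zfp281 (chromosome 1, 136679787 to 136680675, 49955 bp away, fold 7.85). Pou5f1 had 3 of its 9 regions in this class and Sox2 2 of 4. The region near Lin28a was its only one in 2iL, and 1 separate region was called there at 96 h.

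Genes listed for formative pluripotency, the state that follows the naive one, had 12 of 44 (27.3%, 15.0 to 42.8). The strongest lay inside Etv5, an ETS factor gene downstream of MEK (chromosome 16, 22394991 to 22395785, fold 9.47 from 96 reads). Others were 31058 bp from Sox4 (chromosome 13, 28917417 to 28918099, fold 7.28) and inside Tcf7l1, which encodes the repressor of the WNT pathway that GSK3 inhibition relieves (chromosome 6, 72694068 to 72694796, fold 6.69). Etv5 and Tcf7l1 each had 3 of 8. Cldn6, a claudin gene, had 1 region in all (fold 4.89, 3162 bp from the gene).

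Genes of the pathways that 2iL acts on had 18 of 57 (31.6%, 19.9 to 45.2). The intervals for these, the core and the formative genes lay below 45.6%, and those of the other 11 lists spanned it. Against the share at like fold, computed list by list, the signalling interval spanned its value (45.0%) and that of the chromatin genes lay below its own (48.1%). Axin2, a WNT target and feedback inhibitor, had 2 of 4, the strongest 32166 bp from the gene (chromosome 11, 108982594 to 108984147, fold 8.33 from 51 reads). A region 5235 bp from the FGF receptor gene Fgfr1 had a fold of 6.97 from 109 reads (chromosome 8, 25512734 to 25514210), and one 10742 bp from Lifr, the LIF receptor gene, 6.19. Dusp6, a phosphatase gene that MEK signalling induces, had 2 of 3. Nodal and BMP genes had 14 of 36 (38.9%, 23.1 to 56.5). The strongest lay inside the receptor gene Bmpr1a (chromosome 14, 34468452 to 34469301, fold 12.6 from 75 reads), 32420 bp from Id1, a BMP target (fold 8.77 from 105 reads), and 22114 bp from the ligand gene Bmp4 (fold 7.90). Id1 and Bmp4 had 3 of 4 each, and Smad7 had 3 of 6. Smad3 had 3 of 3, with 1 separate region called at 48 h and 1 at 96 h. Among the genes with none were Id2 and Id3, with 0 of 3 each.

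Trophoblast genes had 9 of 23 (39.1%, 19.7 to 61.5). Hand1, a basic helix-loop-helix factor gene, had 3 of 3, with 2 separate regions at 48 h (strongest at chromosome 11, 57813387 to 57815450, fold 9.66 from 78 reads), and regions lay inside Tead4 (fold 10.4 from 114 reads) and Tfap2a (7.23). Ascl2 had a single weak region and no other (fold 2.68, 39219 bp from the gene). Transcription factors of the germ layers had 9 of 16 (56.2%, 29.9 to 80.2). Pax3, of the neural crest, had 2 of 2 (fold up to 6.91), Gata4 and Olig3 1 each (5.79 and 3.74) and the mesoderm gene T 2 of 3 (5.99). The regions of Gata4 and Olig3 lay 49021 and 13748 bp from the genes. Pax3, Gata4 and Olig3 had no other region, and the interval for the list spans the 45.6% of all regions.

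Energy metabolism genes had 21 of 51 (41.2%, 27.6 to 55.8), with none lacking other regions. Hk2, the hexokinase gene at the entry of glycolysis, had 4 of 6, the strongest 17106 bp from the gene (chromosome 6, 82707218 to 82708516, fold 13.2 from 109 reads). A region inside Pfkp, a phosphofructokinase gene, had a fold of 11.4 (chromosome 13, 6642379 to 6643947, 109 reads). One 49333 bp from Sdha, a gene of respiratory complex II, had 11.2 from 142 reads (chromosome 13, 74399203 to 74400088). Atp5b and Acadm had regions of fold 10.0 and 9.26, which lay 4882 and 49229 bp from the genes.

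Nuclear receptor and coregulator genes had 19 of 52 (36.5%, 23.6 to 51.0). Nrip1, a corepressor gene, had 2 of 4, the strongest with a fold of 10.2 from 75 reads (chromosome 16, 76332026 to 76332576). The coactivator gene Ppargc1b had 1 region in all, which was of this class (fold 5.34). At Nr2f2 the fold was 6.55. Chromatin and DNA methylation genes had 18 of 56 (32.1%, 20.3 to 46.0), with the strongest near Tet2, a methylcytosine dioxygenase gene (chromosome 3, 133577064 to 133578374, fold 9.77 from 75 reads), inside Setdb1, a histone H3 lysine methyltransferase gene (8.26), and near Smarcd3, a subunit gene of a chromatin remodelling complex (7.83). Kdm6b, a histone demethylase gene, and Ezh2, the Polycomb methyltransferase gene, had no region outside this class, with folds up to 5.45 and 4.70. Their strongest regions lay 17944 and 35502 bp from the genes.

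Cell cycle and Myc network genes had 14 of 34 (41.2%, 24.6 to 59.3), and the share at like fold was also 41.2%. Of only 13 genes with a 2iL region, 5 (38.5%, no interval computed) had no region outside this class, against 18.6% of all genes. Among these were the D-type cyclin genes Ccnd2 and Ccnd1. Ccnd2 had 2 regions, the strongest 41960 bp from the gene (chromosome 6, 127082830 to 127083663, fold 10.2 from 78 reads). The Ccnd1 region (fold 6.35, 40791 bp from the gene) also counts for Fgf4. The others were E2f3 (up to 5.93, inside the gene), Mycl (5.40, inside the gene) and Mxd1 (4.28, 11852 bp away). Ccnd3, the third D-type cyclin gene, held the strongest region of the list (chromosome 17, 47492513 to 47494002, fold 13.9 from 90 reads) but only 2 of its 7 regions were of this class. A region near Max, the partner gene of MYC, had a fold of 7.61.

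Germ cell genes had 13 of 35 (37.1%, 21.5 to 55.1), with folds of 9.08 inside the receptor gene Kit, 7.96 near Sycp3 and 5.86 near Dppa3. Adhesion and matrix genes had 13 of 31 (41.9%, 24.5 to 60.9). Every 2iL region was of this class at the laminin genes Lama1, with 2 of 2 (chromosome 17, 67709770 to 67711823, fold 7.70 from 111 reads), and Lamb1, with 4 of 4 (6.29). Lama1 had no later region, while Lamb1 had 3 regions at 96 h. Lamc1, another laminin gene of the list, had 2 of 3 (5.48). Itgb5, an integrin gene, had 2 of 3 (7.54). Cldn4 had 2 of 5 and Cldn6 1 of 1, while Cdh1, Itga6, Fn1 and Col4a1 had 0 of 4, 0 of 5, 0 of 3 and 0 of 1. Over all protein-coding genes with a 2iL region, every such region was of this class at 3315 of 12252. Control genes of other tissues had 11 of 15 (73.3%, 44.9 to 92.2), the highest share of any list, on few regions. A region 17185 bp from Apoa2 had a fold of 12.9 from 147 reads (chromosome 1, 171204110 to 171204795), regions near Prl, with 2 of 2, had up to 8.86, Mb 3 of 4 had up to 5.87, and Gh had 1 of 1 at 3.53.

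By chromosome, the share of 2iL regions called only in 2iL ran from 42.2% on chromosome 2 (421 of 997, interval 39.1 to 45.4) to 51.7% on chromosome 12 (283 of 547, 47.5 to 56.0). The X chromosome had 93 of 207 (44.9%). The intervals of chromosomes 2, 4 and 12 left out 45.6%, and those of the other 17 spanned it.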

How the data were processed

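The deposited files are 3 peak lists, 1 per antibody library. Input libraries, 3 in number, were left out. Tools named per the submitters' processing notes are bcl2fastq (2.20.0.422), BWA, SAMtools, Picard and MACS2, with mm10 as the build. Whether inputs entered the calling, and at what threshold, is stated in no source used here. The authors deposited, for each summit, a fold enrichment (a ratio over local background), a p-value and a q-value as −log10, a score capped at 1000 and a summit offset. The score was not used. Read totals are not given in the files. Reads at a summit were recovered from fold and p (Poisson, pseudocount of 1), and came out whole within 0.05 for 100% of the summits that could be inverted in each library.

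Regions are unique intervals with the values of their highest-fold summit. They were pooled and merged with bedtools 2.31.1 and membership was checked with independent code, which was tested on simulated intervals. Genes and promoter windows came from RefSeq (GRCm38.p6), and all 231 listed genes matched. Near a gene means a summit at most 50 kb from its span. The promoter table held no window on chromosome 18. The members and lists were chosen with earlier results of these data known. Named were the 20 strongest regions, the 10 genes with the most, up to 8 genes per list with no other region and the 3 strongest per list, the 5 widest and the 5 with most summits, and the 5 on each side of the overlap rule. One gene that this names is not reported here. The rule's promoters with the full element came to 1, so windows with AAGGTCA were added after the values were seen. Alternatives were other overlaps, q thresholds, list lengths, windows, gene sets and motifs. Shares carry exact Clopper-Pearson 95% intervals, and no p-value was computed.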

Additional observations from a re-analysis of the deposited data

How the results depend on the processing

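The values below are, unless named otherwise, for regions called only in 2iL. Their number was 6019 to 8945 under 6 of the 7 other definitions, within 1.5 times of 6277, and 2677 when only the 7018 regions of highest fold were kept from every list. Shortened lists gave 38.1% of 2iL regions, a median fold of 7.28, 5.45% within 1 kb of a gene end, 20.4% over 50 kb from a gene, 8.29% with another such region within 10 kb, 29.1% of 2iL regions near the gene lists and the full element in 1.12% of promoter windows. The share of 2iL regions was 43.7% when a later region within 1 kb counted, 51.3% when an overlap had to cover 50% of each of the overlapping regions, 65.0% when only the 96 h list decided and 49.3% when only the 48 h list did. With the 50% overlap the median fold was 5.27, 19.4% had another such region within 10 kb, and the list share was 44.3%. With only the 96 h list these were 5.40, 21.7% and 56.4%, and with only the 48 h list the list share was 41.9%. A q of 1e-05 or less gave median folds of 5.27 in all lists and 5.27 in the 2iL list alone, with 15.5% and 15.4% having another such region within 10 kb. With all annotated genes, 14.1% lay within 1 kb of a gene end and 5.88% over 50 kb from a gene. Another such region lay within 5 kb of 11.2%. Genes within 10 kb gave a list share of 29.3%. AAGGTCA in place of the full element gave 9.09%. Fewer regions enter the shortened lists and the narrower windows by construction. The cause of the shifts in share, in these settings and in the others, was not tested. The remaining 34 such values stayed inside the 95% interval of the value reported, or within 1.5 times for counts. For single gene lists 109 values stayed inside that interval and 17 left it. With genes within 10 kb the shares were 30% for naive, 5.56% for core, 18.5% for signalling, 15.4% for germ cell and 23.8% for cell cycle genes. With the nearest gene alone it was 26.7% for energy metabolism. Shortened lists gave 26.5% for naive, 14.3% for formative and 16.7% for chromatin genes. With only the 96 h list the shares were 55.9% for naive, 46.2% for core, 50% for formative, 54.4% for signalling, 66.7% for Nodal and BMP, 51.9% for nuclear receptor, 55.4% for chromatin and 61.8% for cell cycle genes. No paired analysis was possible because each condition had 1 library. Depth could not be compared between libraries, because read totals are not given. The later libraries had the higher background floors, 8.09 (48 h) and 5.84 (96 h), against 5.04 reads for 2iL. Whether these floors follow depth was not tested. A region under the threshold in one library may not be so in another.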

Other observations

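Some genes had several regions called only in 2iL and no ESRRB region later, and they were chosen after their values were seen. Of the 2284 such genes, 592 had at least 2 of these regions, 125 at least 3 and 34 at least 4. Tbc1d8, a gene for a GTPase-activating protein of membrane traffic, had 6 (highest fold 8.38). Zfp296, a zinc finger gene expressed in embryonic stem cells, had 5 with its neighbours Clasrp and Relb (highest fold 7.82), and the 3 genes share those regions. Cd22 had 5 and its neighbours Ffar1, Ffar2 and Ffar3 had 4 each, including the region of fold 24.1 that was second strongest of the class. Ube2l6, a gene of the ISG15 conjugation pathway, had 5 (13.1), as did Cpn2 (11.3), Tspan14, a tetraspanin gene (10.9), Synj1, a phosphoinositide phosphatase gene (8.19), and Pgm2 (7.02). The spans of these genes run from 0.903 kb (Ffar1) to 107 kb (Tbc1d8).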
